A study of Homo sapiens with 21 samples.

Results

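The S100 proteins are small calcium-binding proteins that carry EF-hand calcium-binding loops and act mostly as dimers. On binding calcium they open a face that docks target proteins such as annexins, myosin and ezrin, and some of them are secreted and bind receptors such as RAGE (AGER) and TLR4. In epithelia and carcinomas they are known for roles in cell motility, membrane traffic and keratinocyte differentiation, and S100A4 is widely used as a mesenchymal marker. Here 10 of the 20 S100 protein-coding genes in the count files are described, S100A2, S100A4, S100A6, S100A8, S100A9, S100A10, S100A11, S100A14, S100A16 and S100P, chosen by symbol among 53515 genes. Of these, 9 lie in the 1q21 cluster on chromosome 1, and S100P lies on chromosome 4.

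RNA sequencing covered 7 parental and 10 resistant human cancer cell lines in 21 libraries. The sorafenib-resistant HepG2S1 and HepG2S3 were derived from the liver line HepG2, and the 5-fluorouracil-resistant PancB1Q and PancB1V from the pancreatic line PancVB. In lung, the erlotinib-resistant HCC4006ER came from HCC4006P1, and the gefitinib-resistant HCC4006GR and HCC827GR came from HCC4006P2 and HCC827P. In ovary, the olaparib-resistant U10 and U100 came from UWB1.289, and the cisplatin-resistant IGROV-1/CDDP came from IGROV-1. Replicate libraries, 2 a line, exist for HepG2, HepG2S3, HCC4006P1 and HCC4006ER, the remaining lines have 1, and every resistant line is a single derived line. The labels do not say that replicate libraries came from separate cultures, so p-values measure only the spread between these libraries, which may be technical. The study asked whether resistance goes together with an epithelial-to-mesenchymal transition (EMT).

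The sequence before the transcription start separated the S100 genes into CpG-rich and CpG-poor starts, and 3 starts are shown for this contrast. Over windows of 300 bases around the start (RefSeq, GRCh38.p14, with 14 windows for the 10 genes), S100A6 held 31 CG dinucleotides, S100A10 held 32 and S100A11 held 22, against a median of 14 over 35116 promoters. The 11 windows of the other S100 genes held between 2 and 8. The motif TATAAA, searched on both strands, was found in windows of S100A4, S100A8, S100A9 and S100P and in 11.5% of all promoters, and TGANTCA was found in 1 of the S100A2 windows and in 7.71% of all promoters. The 250 bases before the start of S100A6, at chr1:153535992-153536241 on the minus strand, represent the CpG-rich genes. Those of S100A4 lie at chr1:153545807-153546056 and those of S100A14 at chr1:153616326-153616575, both on the minus strand. Of the 10 genes, S100A4 had the largest fitted increase and S100A14 the largest fitted decrease of a resistant line against its parental line. Capitals mark CG dinucleotides and, in S100A4, TATAAA. A match is a description of the letters and not a binding site.
S100A6: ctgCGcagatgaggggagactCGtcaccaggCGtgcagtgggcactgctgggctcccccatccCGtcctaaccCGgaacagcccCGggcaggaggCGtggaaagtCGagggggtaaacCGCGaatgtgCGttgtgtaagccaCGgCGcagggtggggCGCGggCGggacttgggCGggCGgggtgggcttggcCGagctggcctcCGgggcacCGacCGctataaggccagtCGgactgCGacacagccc
S100A4: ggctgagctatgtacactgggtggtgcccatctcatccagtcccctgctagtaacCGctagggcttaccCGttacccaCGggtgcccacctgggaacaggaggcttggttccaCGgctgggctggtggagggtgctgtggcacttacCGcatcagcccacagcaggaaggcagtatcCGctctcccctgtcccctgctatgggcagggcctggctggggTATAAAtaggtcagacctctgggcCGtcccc
S100A14: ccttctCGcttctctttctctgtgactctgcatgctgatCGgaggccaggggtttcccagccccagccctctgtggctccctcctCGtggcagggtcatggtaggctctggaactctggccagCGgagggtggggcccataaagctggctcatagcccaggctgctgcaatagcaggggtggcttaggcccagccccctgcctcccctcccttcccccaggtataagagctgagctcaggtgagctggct

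The labels of the HepG2 family and of the HCC4006 parental lines were checked against marker genes before the S100 values were read. Ovary, pancreas and other lung markers are not given here, so nothing is said on the labels of the other lines. Total counts on genes ran from 9851195 to 36639473 per library. The detection floor was taken as 3 counts, which correspond to between 0.0819 and 0.305 counts per 1000000 counts on genes (CPM). HCC4006P1 replicate 1 lacked counts for part of the genome, which raised its CPM by 22.1%. CPM below are given without correction for this. HepG2 held 16105 and 8261 CPM of the albumin gene ALB, but ALB, APOA1, AFP and TTR were all at 0 counts in HepG2S1, and ALB was at 7.44 and 10.9 CPM in HepG2S3. In the same lines the vimentin gene VIM was at 1215 CPM in HepG2S1 and at 1137 and 1094 CPM in HepG2S3, against 0.109 and 0.0861 CPM (4 and 3 counts) in HepG2. The liver markers thus go against the label of HepG2S1 and were nearly absent from HepG2S3. For S100A4 and S100A14, calls over pairs are therefore also counted without these lines. HCC4006P2 held 113 CPM of the lung factor NKX2-1, whereas HCC4006P1 held 0.16 and 0 CPM. The leukocyte gene PTPRC did not exceed 0.665 CPM and TYROBP was at 0 in all 21 libraries, but 2 other genes of the myeloid list were higher, with LYZ at 1987 and 1118 CPM in HepG2 and CSF1R at 43.6 CPM in HCC4006GR.

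The S100 genes fell into a few abundant and several scarce transcripts. Per kilobase of exon, the median level over the 17 lines was 643 CPM for S100A6, 335 for S100A11 and 232 for S100A10, which are the 3 genes with CpG-rich starts, and 63.9 for S100A16. The other medians were far lower, at 7.21 CPM per kilobase for S100A2, 5.17 for S100A4, 3.84 for S100A14, 0.616 for S100A9, 0.257 for S100P and 0 for S100A8. Without scaling by length, S100A6 ranged from 52.6 CPM in HepG2 to 1457 CPM in HCC4006P1, a 27.7-fold range, and exceeded 100 CPM in 15 of the 17 lines. S100A10 and S100A11 exceeded 100 CPM in 16 lines each, with HepG2 the exception for both, and spanned 9.91-fold and 6.32-fold ranges. S100A4 and S100A14 were detected over far wider ranges, from 1.74 to 435 CPM and from 0.07 to 236 CPM. Among the 27 pairs of replicate values with at least 50 counts in both libraries, the median ratio between replicates was 1.14. The largest was 2.13, for S100A4 in HepG2. Ratios in HCC4006P1 are affected by the raised CPM of its replicate 1.

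**Figure D1:**
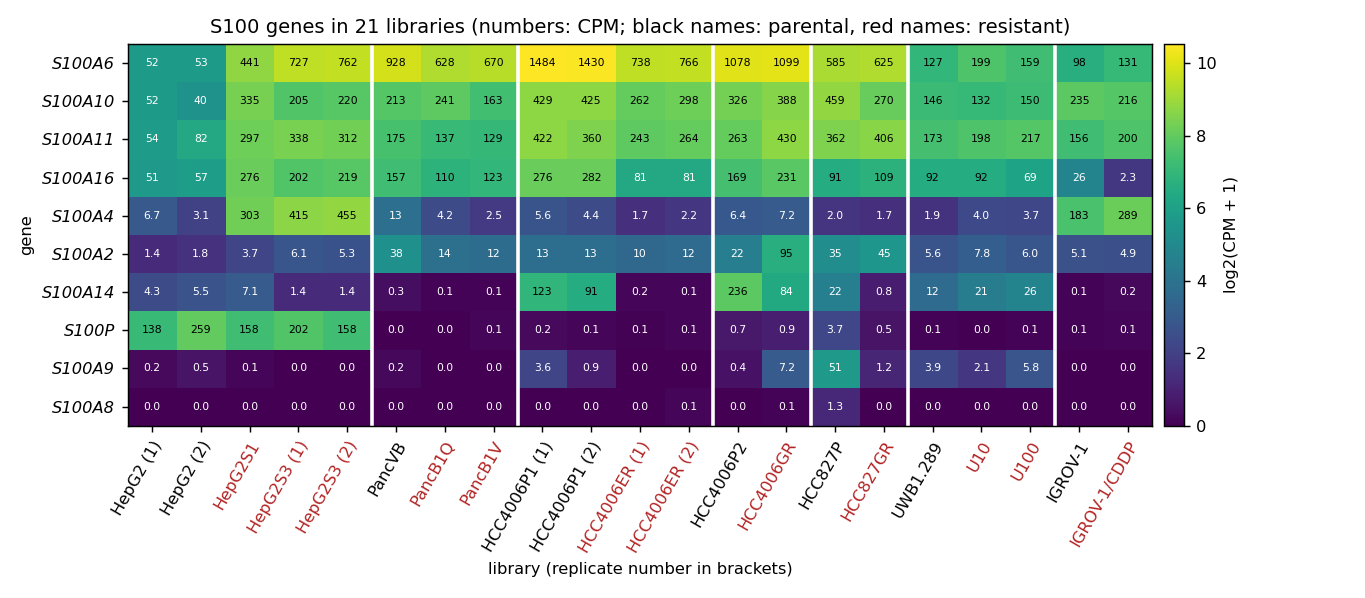
Level of the 10 S100 genes (rows) in each of the 21 libraries (columns, grouped by parental line and set apart by white lines), coloured by log2(CPM + 1) and printed as CPM; black names are parental and red names resistant lines. S100A6, S100A10 and S100A11 were above 40 CPM in every library, whereas S100P exceeded 100 CPM in the HepG2 family alone and S100A8 reached no more than 1.33 CPM.

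Resistant lines differed in direction, and no S100 gene changed one way in all 10 pairs. With edgeR's quasi-likelihood test on all 16834 genes, at an adjusted p under 0.05, HepG2S3 had 6 S100 genes higher and 2 lower than HepG2, where 27.2% of all genes tested were called higher and 28.6% lower. HepG2S1 had 5 higher and 0 lower, beside 21.2% and 23.9% of all genes. The opposite was seen in HCC4006ER, with 0 higher and 6 lower than in HCC4006P1, beside 18.2% higher and 16.1% lower among all genes. In HCC4006GR 2 were higher and 1 was lower (5.07% and 2.88% of all genes), and in HCC827GR 0 were higher and 3 lower (7.67% and 5.66%). PancB1Q had 1 lower (7.12% of all genes higher, 5.97% lower), PancB1V had 2 lower (7.78% and 5.82%) and IGROV-1/CDDP had 1 lower (4.81% and 4.89%). U10 and U100 had 0 called by this test, with 2 and 1 at an unadjusted p under 0.05, beside 2.74% higher and 1.65% lower among all genes in U10 and 1.08% and 0.392% in U100. The median log2 fold change of the 10 genes was 1.60 in HepG2S3, 1.33 in HepG2S1 and −0.89 in HCC4006ER, where the median over all genes tested was −0.0025, 0 and 0.0416. A line with 1 library was assumed to vary like the replicated lines, and less RNA per cell and fewer expressing cells cannot be told apart in bulk samples. Without HepG2 replicate 1 or 2, more S100 genes were called in PancB1Q, IGROV-1/CDDP, HCC827GR, U10 and U100. More of all genes tested were then called too, in every pair outside the HepG2 family. Calls gained in this way below are therefore not particular to the S100 genes.

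**Figure D2:**
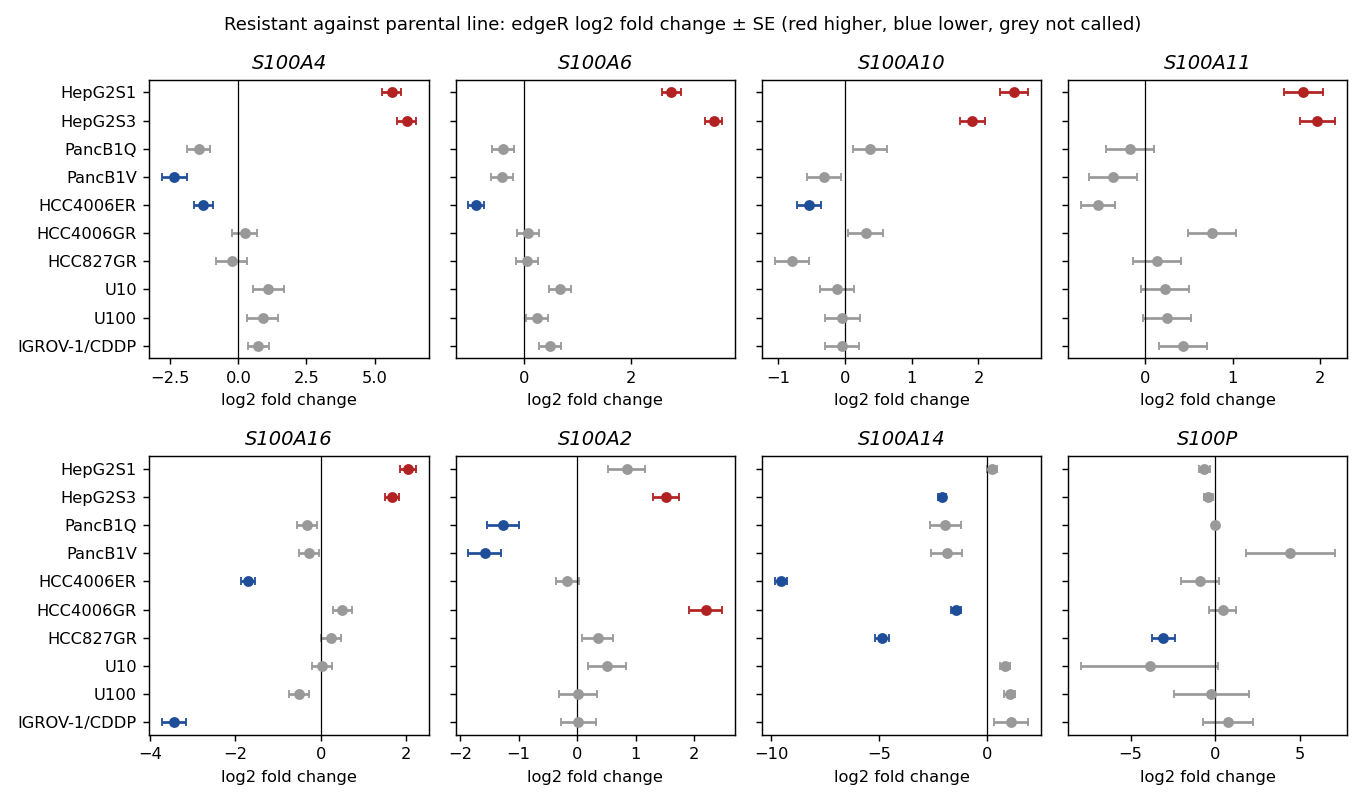
Fitted log2 fold change (horizontal axis) with its standard error of 8 S100 genes in each of the 10 resistant lines against the parental line; red points are higher, blue points lower at an adjusted p under 0.05, grey points not called, and the horizontal scale differs between panels. S100A4, S100A6, S100A10, S100A11 and S100A16 were higher in both HepG2S1 and HepG2S3 and in no other resistant line, and S100A14 reached −9.55 in HCC4006ER.

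S100A4 (chr1:153516089-153522612 in GRCh37, minus strand, protein-coding) binds non-muscle myosin and showed the largest increase of any S100 gene. It was at 6.66 and 3.13 CPM in HepG2, at 303 CPM in HepG2S1 and at 415 and 455 CPM in HepG2S3. The resistant and parental libraries did not overlap, and the increase was 49.3-fold in HepG2S1 (log2 fold change 5.62 ± 0.35 SE, adjusted p = 1.95e-06) and 72.4-fold in HepG2S3 (6.18 ± 0.34, adjusted p = 4.53e-07). Outside this family S100A4 was high only in IGROV-1 and IGROV-1/CDDP, at 183 and 289 CPM, a difference that was not called (0.73 ± 0.38, adjusted p = 0.296; 0.0171 and 0.0172 without HepG2 replicates 1 and 2). In the other 12 lines it lay between 1.74 and 13.3 CPM. It was 5.09-fold lower in PancB1V, at 2.50 CPM against 13.3 CPM in PancVB (adjusted p = 0.0096), while PancB1Q at 4.24 CPM was not called (−1.47 ± 0.43, adjusted p = 0.0531). The latter passed without HepG2 replicate 1 or 2 (0.00123 and 0.00128), with library totals without TMM scaling (0.0404), with DESeq2 (0.00785) and with no filter on low counts (0.02). In HCC4006ER it was at 1.67 and 2.16 CPM against 5.61 and 4.41 CPM in HCC4006P1, which is 2.45-fold lower (adjusted p = 0.0191). That call was lost with all genes kept (0.0543) and without any one of the 4 libraries of the pair, with adjusted p of 0.0746 and 0.0778 without HCC4006P1 replicates 1 and 2, and 0.135 and 0.0536 without HCC4006ER replicates 1 and 2. Over the 8 pairs outside the HepG2 family S100A4 was therefore called higher in 0 and lower in 2.

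The mesenchymal gene VIM and S100A4 can be read side by side. CDH2, the other mesenchymal gene of the EMT marker list (VIM, CDH2, CDH1 and EPCAM), was not called in HepG2S3 or HepG2S1. It was called higher in HCC4006ER, HCC4006GR and HCC827GR. Of the 4 marker genes, 1 was higher and 2 were lower in IGROV-1/CDDP, beside 4.81% and 4.89% of all genes. PancB1Q, PancB1V, U10 and U100 had 0 of the 4 called. VIM was higher in HepG2S3 and HepG2S1 (13.12 and 13.21 on the log2 scale, fitted against the few HepG2 counts given above) where S100A4 was also higher. In HCC4006ER VIM was higher by 1.44 while S100A4 was lower, and in HCC4006GR and HCC827GR VIM was higher by 1.97 and 3.33 while S100A4 differed by 0.23 ± 0.45 and −0.25 ± 0.58 and was not called. The 3 genes with the most similar level to S100A4 over the 17 line means of log2(CPM + 1) were MFAP5, STAC2 and GRID1, with Pearson's r of 0.974, 0.968 and 0.955. These correlations describe lines that share parental lines, and rest on the few lines with high S100A4.

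**Figure D3:**
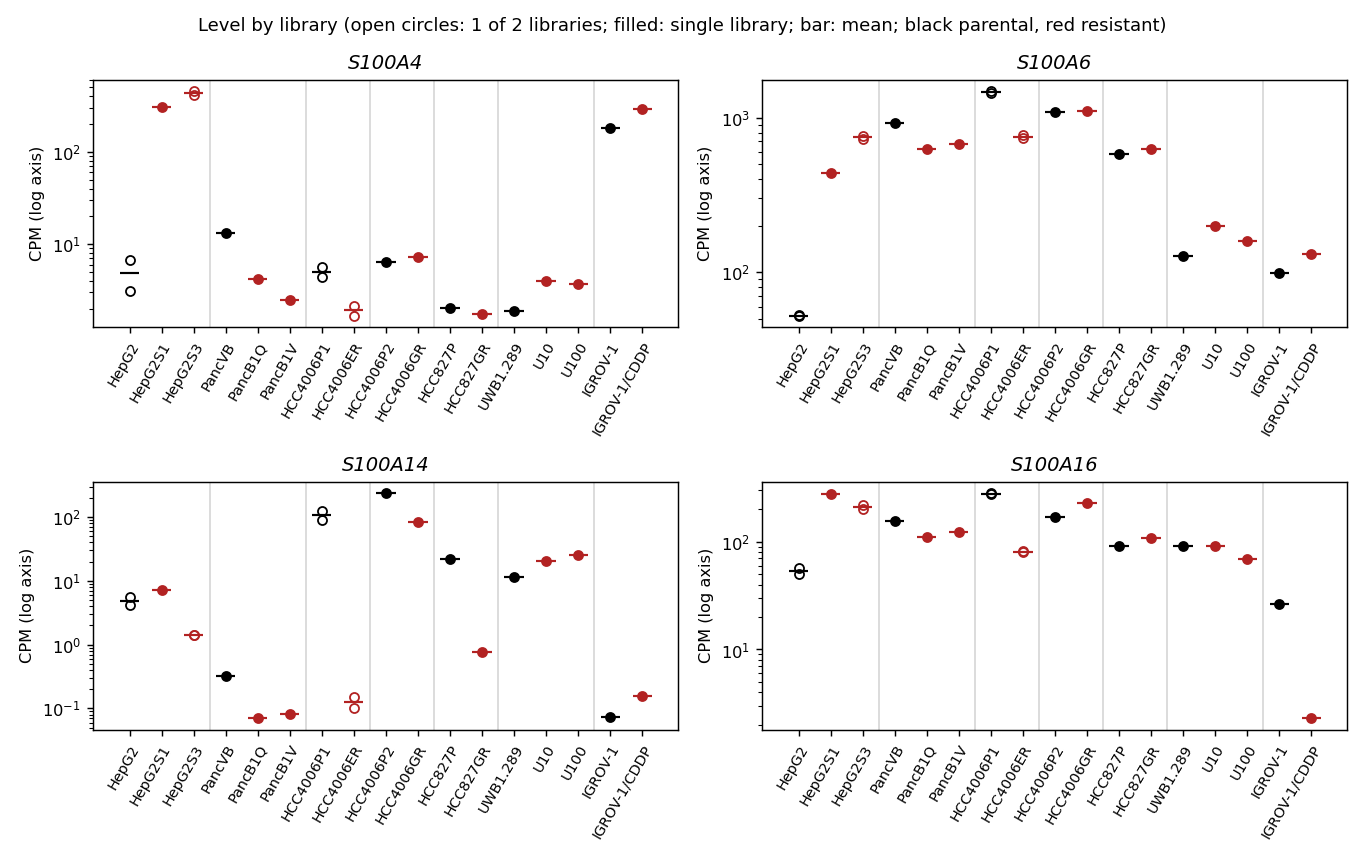
CPM on a log axis of S100A4, S100A6, S100A14 and S100A16 in each of the 17 lines; open circles are the libraries of lines with 2, filled circles are single libraries, bars are means, and black and red mark parental and resistant lines. S100A4 rose from 6.66 and 3.13 CPM in HepG2 to 303 CPM or more in its resistant lines, and S100A14 was at 0.152 and 0.103 CPM in HCC4006ER against 123 and 91.5 CPM in HCC4006P1.

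S100A6, S100A10 and S100A11 bind annexins: S100A10 forms a complex with annexin A2 (ANXA2) at the plasma membrane, S100A11 pairs with annexin A1, and S100A6 (calcyclin) binds ANXA11 and the calcyclin-binding protein CACYBP. S100A6 (chr1:153507075-153508720 in GRCh37) was at 52.3 and 52.9 CPM in HepG2, 441 CPM in HepG2S1 and 727 and 762 CPM in HepG2S3. It was thus 6.72-fold higher in HepG2S1 (adjusted p = 1.88e-06) and 11.6-fold higher in HepG2S3 (adjusted p = 1.25e-07). In HCC4006P1, the line with the highest level, it was at 1484 and 1430 CPM, and in HCC4006ER at 738 and 766 CPM, a 1.84-fold decrease (adjusted p = 0.00135) with no overlap between libraries. Of the 971 exon bases of S100A6, 37 are shared with the gene ENSG00000238279 on the opposite strand, which was itself higher in HepG2S3 (2.49 ± 0.46 on the log2 scale).

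S100A10 (chr1:151955391-151966335 in GRCh37) was at 52.3 and 40.4 CPM in HepG2, 335 CPM in HepG2S1 and 205 and 220 CPM in HepG2S3, which is 5.79-fold and 3.75-fold higher. In HCC4006ER it was at 262 and 298 CPM against 429 and 425 CPM in HCC4006P1. This 1.45-fold decrease passed narrowly (adjusted p = 0.0472), and the call was lost with all genes kept (0.0996) and without HCC4006ER replicate 1 (adjusted p = 0.285) or 2 (0.102), HCC4006P1 replicate 2 (0.239), or HepG2S3 replicate 1 or 2 (0.0835 each). In HCC827GR S100A10 was at 270 CPM against 459 CPM (−0.80 ± 0.26, adjusted p = 0.0762), and passed without HepG2 replicate 1 or 2 (adjusted p = 0.0231 and 0.0237) or with no filter (0.047). S100A11 (chr1:152004982-152020383) was at 53.7 and 82.2 CPM in HepG2, 297 CPM in HepG2S1 and 338 and 312 CPM in HepG2S3, which is 3.51-fold and 3.91-fold higher. In HCC4006ER its difference was −0.54 ± 0.19 (adjusted p = 0.0577). It passed with DESeq2 (adjusted p = 0.0368), no filter on low counts (0.0203), a replicate block (0.0404) or the libraries of the pair only (0.00828), and without HepG2 replicate 1 or 2 (0.0056 and 0.00575). In HCC4006GR it was 0.76 ± 0.27 (adjusted p = 0.139), and it passed without the same HepG2 libraries (0.0151 and 0.0155). S100A11 has processed pseudogenes of near-identical sequence, and between 19.3% and 31.9% of the alignments of a library were set aside as not unique. Whether S100A11 reads were among these alignments was not tested, so its level is uncertain. Over the 17 lines S100A10 and S100A11 had the highest correlation between any 2 of the S100 genes (r = 0.825).

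The binding partners and receptors form a list of 11 genes, of which 9 were tested. In HepG2S3 7 were higher and 1 was lower, beside 27.2% higher and 28.6% lower among all genes tested. In HepG2S1 6 were higher and 0 lower (21.2% and 23.9% of all genes), and in HCC4006ER 3 were higher and 2 lower (18.2% and 16.1%). ANXA2, the partner of S100A10, was higher by 3.75 ± 0.20 in HepG2S3 and 3.73 ± 0.21 in HepG2S1, and lower in HCC4006ER (−1.33 ± 0.18) and HCC827GR (−0.91 ± 0.25). ANXA2 was thus at 117 and 90.7 CPM in HepG2 and at 1626 CPM or more in its resistant lines. AHNAK, a scaffold protein bound by the S100A10 and annexin A2 complex, was higher by 2.49 ± 0.16 in HepG2S1 and 1.80 ± 0.14 in HepG2S3 and lower by a small amount in HCC4006ER (−0.42 ± 0.14). CACYBP was higher in HepG2S1 and HepG2S3 (1.58 ± 0.22 and 1.48 ± 0.19) and in IGROV-1/CDDP (1.12 ± 0.27). BSG, a receptor for S100A9, was called higher in 5 resistant lines, HepG2S1, HepG2S3, HCC4006ER, HCC827GR and U10, with 1.00 ± 0.13 in HCC4006ER the largest. The receptor gene AGER was at 1.65 to 4.76 CPM in all libraries. The median log2 fold change of the partners was 1.02 in HepG2S3 and 0.00690 in HCC4006ER, beside −0.0025 and 0.0416 over all genes.

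S100A14 and S100A16 are neighbours 1109 bases apart, both on the minus strand (chr1:153586731-153589462 and chr1:153579362-153585621 in GRCh37), yet they changed differently. S100A14 is known for its expression in epithelial cells, and it was called lower in 4 of the 10 resistant lines and higher in 0. Outside the HepG2 family it was lower in 3 of 8. In HCC4006P1 it was at 123 and 91.5 CPM, and in HCC4006ER only 3 and 2 counts were found, at 0.152 CPM (95% Wilson interval 0.0516 to 0.446) and 0.103 CPM (0.0282 to 0.375). This was the largest decrease of an S100 gene with counts on both sides, 752-fold (log2 fold change −9.55 ± 0.28, adjusted p = 1.76e-07). In HCC827GR it was at 0.772 CPM against 22.1 CPM in HCC827P, a 29.1-fold decrease (adjusted p = 9.21e-05). In HCC4006GR it was at 84.2 CPM against 236 CPM in HCC4006P2, a 2.70-fold decrease (adjusted p = 0.00553). The 2 parental cultures of HCC4006 differed themselves, HCC4006P2 being 2.16-fold above HCC4006P1 (adjusted p = 0.00328), in a comparison with 1 S100 gene higher and 1 lower where 11.1% of all genes were higher and 10.3% lower. That lower gene was S100A16 (−0.78 ± 0.21, adjusted p = 0.0256), whose call was lost without HepG2S3 replicate 1 or 2 (0.0563 and 0.0564), HCC4006ER replicate 1 or 2 (0.0607 and 0.0606) or HCC4006P1 replicate 2 (0.0677), and with library totals (0.0503) or all genes kept (0.0937). Without HepG2 replicate 1 or 2, S100A11 (−0.61 both times) and S100A2 (0.67 both times) were called there as well, and calls over all genes also rose. Calls over all genes fell when any of those other 5 libraries was left out. S100A2 also passed with library totals (0.0303), and S100A6 with no filter (0.0468) or without HCC4006P1 replicate 1 (0.023).

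In the HepG2 family S100A14 separated the 2 sorafenib-resistant lines. It was at 4.26 and 5.54 CPM in HepG2, 7.11 CPM in HepG2S1 (interval 5.62 to 8.98) and 1.44 and 1.40 CPM in HepG2S3. HepG2S3 was 4.20-fold below HepG2 (adjusted p = 1.47e-05), whereas HepG2S1 differed by 0.22 ± 0.23 (adjusted p = 0.493). HepG2S1 was 4.88-fold above HepG2S3 when the lines were compared directly (adjusted p = 0.00227), and S100A14 was the only S100 gene called there, where 1.11% of all genes were higher and 1.03% lower. The S100A6 difference between them passed without HepG2 replicate 1 or 2 (−0.78 both times, adjusted p = 0.0269 and 0.0276), without HCC4006P1 replicate 1 or 2 (0.0367 and 0.0363), with DESeq2 (0.0278) and with no filter on low counts (0.0175). In UWB1.289, U10 and U100 S100A14 was at 11.7, 20.6 and 25.9 CPM, which was not called (adjusted p = 0.0973 and 0.0766). Both passed without HepG2 replicate 1 (0.0257 and 0.0149) or 2 (0.0259 and 0.0151). In PancVB and IGROV-1 and their resistant lines it was at 0.322 CPM or less.

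The epithelial genes CDH1 (E-cadherin) and EPCAM were lower in HCC4006ER (−5.67 and −4.04), HCC827GR (−3.84 and −4.35) and HepG2S3 (−8.37 and −6.51), where S100A14 was lower. In HepG2S1 both were also lower (−9.18 and −5.48), and S100A14 was not called. In HCC4006GR neither was called while S100A14 was lower. The PancVB and IGROV-1 pairs, where S100A14 was at 0.322 CPM or less, are not compared here. FUT3, TTC9 and RAB25, an epithelial small GTPase, had the levels most like those of S100A14 over the 17 lines (r = 0.929, 0.926 and 0.925).

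S100A16 is expressed in many tissues and was above 50 CPM in all libraries outside IGROV-1 and IGROV-1/CDDP. It was at 50.5 and 57.5 CPM in HepG2, 276 CPM in HepG2S1 and 202 and 219 CPM in HepG2S3, which is 4.10-fold and 3.19-fold higher. In HCC4006ER it was at 81.4 and 80.9 CPM against 276 and 282 CPM in HCC4006P1, a 3.28-fold decrease (adjusted p = 5.43e-05). In IGROV-1/CDDP it was at 2.29 CPM (interval 1.77 to 2.97) against 26.3 CPM in IGROV-1 (24.5 to 28.3). The intervals do not overlap and the fitted decrease was 10.9-fold (adjusted p = 0.000171), the only S100 call in this pair. In HCC4006GR, HCC827GR, U10, U100, PancB1Q and PancB1V it was not called. Intervals cover counting error only.

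S100A2 (chr1:153533584-153540366), a gene of basal keratinocytes that is a known p53 family target, was highest in HCC4006GR. There it was at 95.4 CPM against 21.6 CPM in HCC4006P2, a 4.58-fold increase (adjusted p = 0.00214). In HCC4006ER it was at 10.4 and 11.9 CPM against 13.1 and 13.2 CPM (−0.16 ± 0.20, adjusted p = 0.579). The change of HCC4006ER was lower than that of HCC4006GR by 2.36 ± 0.34 on the log2 scale (adjusted p = 0.00161). In the pancreatic lines S100A2 was at 38.4 CPM in PancVB, 14 CPM in PancB1Q and 12.3 CPM in PancB1V, which is 2.41-fold and 2.98-fold lower (adjusted p = 0.0184 and 0.00656). Both lines share 1 parental library. In HepG2 it was at 1.45 and 1.81 CPM and in HepG2S3 at 6.09 and 5.32 CPM, a 2.87-fold increase (adjusted p = 0.000284), while HepG2S1 at 3.65 CPM gave 0.85 ± 0.32 (adjusted p = 0.0533). It passed with library totals without TMM scaling (adjusted p = 0.00925), with a replicate block (0.0432), and without HCC4006P1 replicate 1 or 2 (0.0388 and 0.0396) or HepG2 replicate 2 (0.0458).

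S100A8 and S100A9 form calprotectin, which is abundant in neutrophils and stressed keratinocytes, and both were scarce here. S100A8 had 26 counts in all libraries together, of which 23 were in HCC827P, at 1.33 CPM. The same line had the highest S100A9, at 51.4 CPM, against 1.22 CPM in HCC827GR, a 42.8-fold decrease (adjusted p = 0.00611). S100A8 was at 0 counts in HCC827GR, at least 6.88-fold lower against a floor of 3 counts, and was not called. Only HCC827P held enough S100A8 counts to pass the filter on low counts, so a decrease against it was close to settled in advance. S100A8 is among the genes whose call in HCC827GR was gained without HepG2 replicate 1 or 2 and with a replicate block. S100A9 was at 3.63 and 0.872 CPM in HCC4006P1 and at 0 counts in both HCC4006ER libraries, which is at least 29.1-fold lower against a floor of 3 counts over the line (adjusted p = 0.00338). The replicates of HCC4006P1 differed 4.17-fold, and the bound became 11.4-fold without replicate 1, 47.5-fold without replicate 2, and 26.6-fold on totals outside the genes without counts in replicate 1. In HepG2S3 S100A9 was also at 0 counts, at least 7.30-fold lower than the 0.218 and 0.488 CPM of HepG2 (adjusted p = 0.0133). Without HepG2 replicate 2 the bound was 4.56-fold and the call was lost (0.0573), and without replicate 1 the bound was 10.2-fold. In HCC4006GR it was at 7.22 CPM against 0.441 CPM, with 109 and 6 counts (4.07 ± 0.94, adjusted p = 0.0425). This call was lost without HepG2S3 replicate 1 or 2 (0.0538 and 0.0535) or HCC4006ER replicate 1 or 2 (0.0592 and 0.0589), and with library totals without TMM scaling (0.0659) or all genes kept (0.288).

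Squamous genes moved beside S100A9 in the HCC827 pair. Of 10 squamous epithelial genes 9 were tested, and in HCC827GR 4 were lower and 0 higher, where 5.66% of all genes were lower and 7.67% higher. The cornified envelope gene SPRR1B had 363 counts in HCC827P and 1 in HCC827GR, and IVL had 47 and 0. In HCC4006ER 3 were lower, beside 16.1% of all genes, and in HepG2S3 and HepG2S1 6 and 5 were higher, beside 27.2% and 21.2%. Among the latter KRT6A had 555 and 266 counts in HepG2S3, 607 in HepG2S1 and 0 in both HepG2 libraries. Total counts on genes were 32008712 and 30639282 in HepG2S3 and 9851195 in HepG2S1, so these counts do not compare as levels. The summed level of the squamous list was 37.5 CPM in HCC827P and 2.06 CPM in HCC827GR, and its part in the S100A9 result was not tested. Of the 7 myeloid markers, the summed level of the 6 other than LYZ was 10.9 CPM in HCC827P and 6.11 CPM in HCC827GR. It was 7.16 and 4.56 CPM in HCC4006P1 and 9.56 and 9.30 CPM in HCC4006ER, and 13.3 CPM in HCC4006P2 and 51.1 CPM in HCC4006GR, of which CSF1R made up 43.6 CPM. The part of these genes, and of LYZ in HepG2, in the S100A9 results was not tested.

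S100P (chr4:6695605-6698897 in GRCh37), first described in placenta and secreted by several carcinomas, was at 138 and 259 CPM in HepG2, 158 CPM in HepG2S1 and 202 and 158 CPM in HepG2S3, and at 3.75 CPM or less in every other library. The libraries of the HepG2 family overlapped, and the differences of −0.65 ± 0.34 and −0.43 ± 0.27 were not called (adjusted p = 0.152 and 0.203). They passed without HepG2 replicate 1 (adjusted p = 0.00253 and 0.0027), and the replicates of HepG2 themselves differed 1.88-fold. S100P was at 158 CPM in HepG2S1, where 4 liver markers were at 0. In HCC827GR it was 8.42-fold lower, at 0.45 CPM against 3.75 CPM (adjusted p = 0.0163).

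Position along 1q21 was examined in HepG2S3 and HCC4006ER. The window from S100A10 to S100A1 held 65 genes outside the S100 family, of which 17 were tested. In HepG2S3 2 of these were higher and 4 lower, beside 27.2% and 28.6% of all genes tested, and in HCC4006ER 4 were higher and 1 lower, beside 18.2% and 16.1%. The filaggrin gene FLG, between S100A11 and S100A9, was lower in HepG2S3 (−3.51 ± 0.67) and higher in HCC4006ER (6.12 ± 0.49), opposite in sign to S100A10, S100A6 and S100A16 in both lines. IVL followed the sign of those genes, with 50 and 60 counts in HepG2S3 against 0 in HepG2 and with 0 in HCC4006ER against 13 and 6 in HCC4006P1. Of the other 10 S100 genes 5 were tested, with 1 higher and 2 lower in HepG2S3 and 1 higher and 1 lower in HCC4006ER. S100A1 was lower in HepG2S3 (−4.60 ± 0.55) and HepG2S1 (−2.58 ± 0.71), and S100A13 was higher in both (0.91 ± 0.14 and 0.58 ± 0.17). S100A3, next to S100A4, was lower in HepG2S3 (−1.78 ± 0.53) and higher in HCC4006ER (1.99 ± 0.52). S100A5, between S100A6 and S100A4, was lower in HCC4006ER (−3.15 ± 0.93) and not called in HepG2S3 (2.10 ± 0.89).

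**Figure D4:**
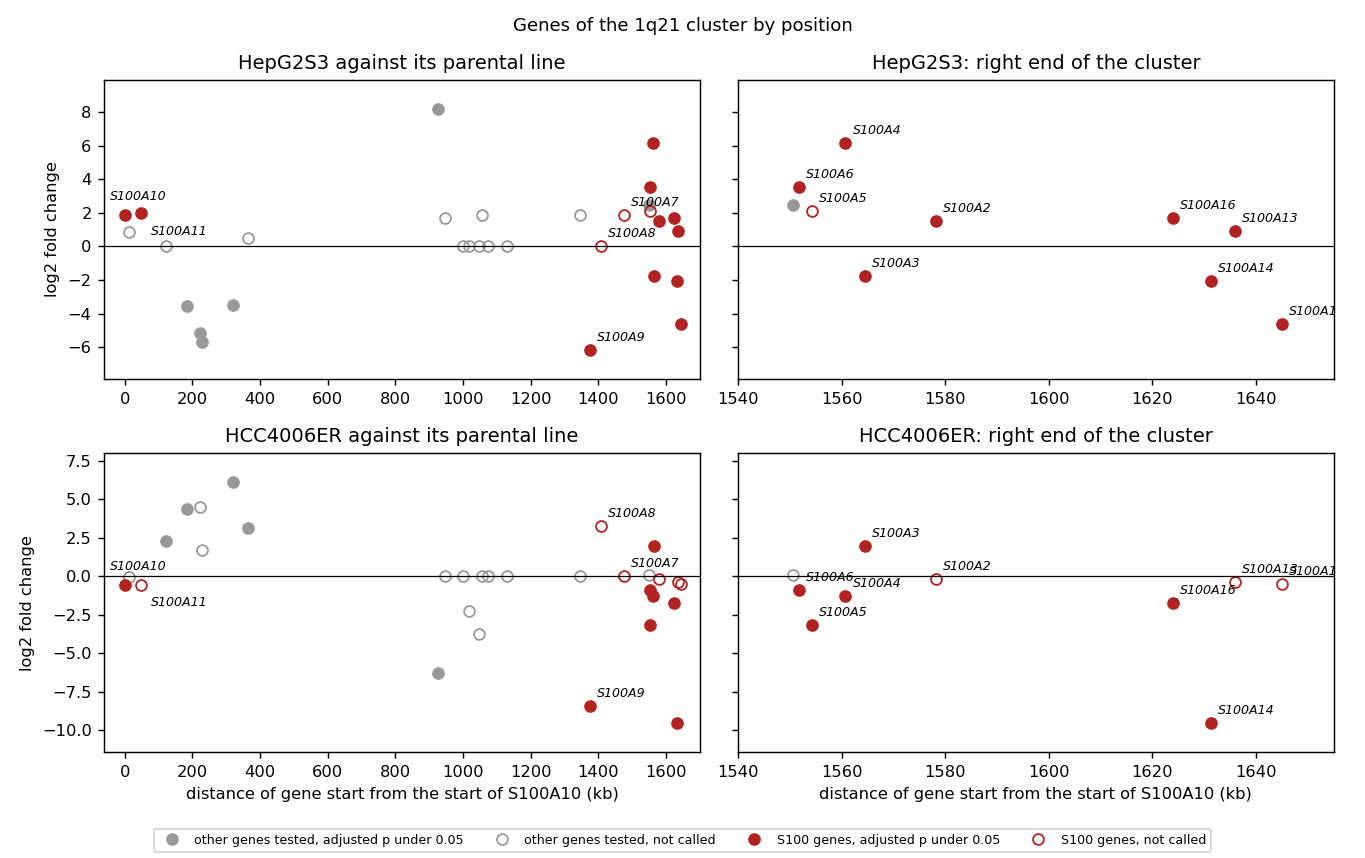
Log2 fold change in HepG2S3 (top) and HCC4006ER (bottom) of the genes tested in the 1q21 cluster against the distance of the gene start from that of S100A10 in kb, for the whole window (left) and its right end (right); red points are S100 genes, grey points other genes, and filled points had an adjusted p under 0.05. S100A14 and S100A9 are lowest in HCC4006ER at −9.55 and −8.40, and S100A4 is the highest S100 gene in HepG2S3 at 6.18; fitted values of S100A9 rest on 0 counts in the resistant lines.

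The changes in HepG2S3 and HCC4006ER, the pairs with 2 libraries on each side, were compared directly. The difference between the 2 changes was called for 7 S100 genes, all 7 higher in HepG2S3, where 23.2% of all genes were called in this direction and 24.3% in the other. It was 7.47 ± 0.47 for S100A4, 7.48 ± 0.37 for S100A14, 4.41 ± 0.21 for S100A6, 3.39 ± 0.24 for S100A16, 2.51 ± 0.28 for S100A11, 2.44 ± 0.26 for S100A10 and 1.69 ± 0.30 for S100A2. S100A14 was lower in both lines, so that its difference reflects the deeper decrease in HCC4006ER, and the other 6 were higher in HepG2S3. The changes of HCC4006ER and HCC4006GR, both from HCC4006 cultures, differed for 6 S100 genes, all lower in HCC4006ER, beside 9.15% of all genes in this direction and 7.45% in the other. The difference was −8.12 ± 0.40 for S100A14, −2.22 ± 0.29 for S100A16, −1.30 ± 0.34 for S100A11 and −0.96 ± 0.25 for S100A6, with S100A2 given above, and the sixth, S100A9, rests on 0 counts in HCC4006ER. For S100A11 the call was lost without HepG2S3 replicate 1 or 2 (adjusted p = 0.056 and 0.0559), HCC4006ER replicate 1 or 2 (0.107 and 0.0703) or HCC4006P1 replicate 2 (0.0684), and with all genes kept (0.126). For S100A6 it was lost without HepG2S3 replicate 1 or 2 (0.0696 and 0.0697) or HCC4006ER replicate 1 or 2 (0.122 and 0.0891), and with all genes kept (0.107). S100A4 and S100A10 were not called, and both passed without HepG2 replicate 1 or 2 (0.00513 and 0.00523 for S100A4, 0.0397 and 0.0406 for S100A10), S100A4 also with DESeq2 (0.0456).

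Across the 7 parental lines, with the resistant libraries of each summed, 8 of the 10 S100 genes passed the filter on low counts and 0 were called by edgeR, and 0 by DESeq2 (which called 74 genes higher and 18 lower of 13866). None had an unadjusted p under 0.05 in edgeR, and 0% of the 12622 genes tested were called in either direction, with 562 at an unadjusted p under 0.05. S100A14 differed by −2.07 ± 1.22 (adjusted p = 0.982). S100A4 gave 0.31 ± 0.83 and S100A6 0.36 ± 0.46, which leaves differences of either sign within their errors. S100A9 gave −3.15 ± 1.80, S100A16 −0.38 ± 0.56, S100A2 0.38 ± 0.41, S100A11 0.37 ± 0.28 and S100A10 0.10 ± 0.31. S100A8 and S100P did not pass the filter.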

How the data were processed

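RNA was sequenced from 7 parental and 10 resistant lines in 21 libraries. The labels name a stranded mRNA kit, and the study's methods name that kit or a 3′ end kit without assigning libraries. Per the labels and the study's methods, reads were trimmed with FastXClipper, mapped to hg19 with TopHat (Bowtie) or STAR and counted with HTSeq; versions are not given in the sources used here. The authors deposited counts of reads per gene, unnormalized, for 53515 Ensembl genes, and 45100 (84.3%) were matched by identifier to GENCODE on GRCh37. Summary rows for ambiguous (2.41% to 3.29% of all counted alignments), not unique (19.3% to 31.9%) and featureless (5.24% to 14% of them) alignments were left out of totals.

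CPM used the total on genes. HCC4006P1 replicate 1 held no counts from within chromosome 7 to the end of the file's chromosome order, where replicate 2 held 18.1% of its counts, which raises CPM of replicate 1 by 22.1%. These 8694 genes, and those without a position, were left out of the tests, and no S100 gene described is among them. Lines were compared with edgeR 4.0.16 (R 4.3.3) by the quasi-likelihood test with TMM, filterByExpr and 17 line groups, which leaves 4 residual degrees of freedom, at a Benjamini-Hochberg adjusted p under 0.05 over 16834 genes. Resistant and parental profiles were compared over 7 parental lines with the line as a block. Alternatives were DESeq2 1.42.0, library totals, no filter, all genes, a replicate block, and leaving out 1 library of a line with 2. Over the parental lines, each was left out in turn with its resistant lines. Comparisons of HepG2S1 with HepG2S3, of the HCC4006 parental cultures and of the HCC4006ER and HCC4006GR changes, and the S100A9 bounds without single libraries or on other totals, were added after seeing the data. The fits were also run on counts simulated from their own means and spread, which cannot test whether lone libraries vary like the replicated lines. CPM intervals are 95% Wilson intervals, and 3 counts are the detection floor. Python 3.11.15 with numpy 2.4.6, pandas 2.3.3, scipy 1.17.1 and matplotlib 3.10.9 was used.

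The members and lists were chosen with earlier results of these data known. The rule for named genes was all 10 genes in every comparison, and up to 5 genes of each list by pairs called and then size of change. It also covered the 3 genes most like each member among 10956 with at least 10 CPM in a line. The text does not name all of these. Genes not called are left out in places, and the most similar genes are given for S100A4 and S100A14 only. Promoter sequences are from RefSeq on GRCh38.p14, and all other positions are on GRCh37.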

Additional observations from a re-analysis of the deposited data

Results flagged for a closer look

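The change between resistant and parental line differed between HepG2S3 and HCC4006ER for 7 S100 genes, by a contrast of the 2 changes in the same edgeR fit. On the log2 scale the change in HepG2S3 minus that in HCC4006ER was 7.48 for S100A14, 7.47 for S100A4, 4.41 for S100A6, 3.39 for S100A16, 2.51 for S100A11, 2.44 for S100A10 and 1.69 for S100A2. The adjusted p ranged from 3.28e-07 for S100A6 to 0.00133 for S100A2, and each passed in all 15 settings tried. Tissue, drug and cell line all differ between the 2 pairs and cannot be told apart.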

How the results depend on the processing

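Of the 29 S100 calls in the 10 pairs, 18 were kept in every setting tried and 11 were lost in at least 1, and no called value changed sign. With all genes kept, including those without counts in HCC4006P1 replicate 1, the number of S100 genes called became 0 in PancB1Q, PancB1V and HCC4006GR. It became 1 in HCC827GR, 1 between the HCC4006 parental cultures and 3 between the HCC4006ER and HCC4006GR changes. Calls also fell over all genes, of which 21672 were then tested. Those called were 361 higher and 234 lower in PancB1Q, and 406 and 293 in PancB1V. They were 128 and 36 in HCC4006GR and 492 and 269 in HCC827GR. Between the parental cultures they were 1066 and 792, and between the changes 534 and 823. The main fit called 1199 and 1005 of 16834 in PancB1Q. The cause was not tested. PancB1Q gave 2 S100 genes with library totals without TMM, with DESeq2 and with no filter on low counts. All genes called there were 863 higher and 1231 lower of 16834, 938 and 627 of 12240, and 1296 and 973 of 27961. HepG2S1 against HepG2S3 gave 2 S100 genes with DESeq2 (226 and 180 of 11698 genes) and with no filter (245 and 330 of 27961). Libraries were left out 1 at a time only in HepG2, HepG2S3, HCC4006P1 and HCC4006ER, so pairs without these lines kept all their libraries. The counts then ranged from 4 to 7 in HCC4006ER, 2 to 4 in HCC4006GR, 3 to 5 in HCC827GR, 5 to 6 in HepG2S1 and 7 to 9 in HepG2S3. They were 1 to 2 in IGROV-1/CDDP and PancB1Q, 2 to 2 in PancB1V, and 0 to 1 in U10 and U100. Between lines they were 1 to 2 for HepG2S1 against HepG2S3 and 1 to 4 between the HCC4006 parental cultures. For differences between changes they were 4 to 8 for HCC4006ER against HCC4006GR and 7 to 7 for HepG2S3 against HCC4006ER. Over the 7 parental lines, where each parental line was left out with its resistant lines, they were 0 to 0. In all comparisons but the last, the number called among all genes also moved with the library left out. These ranges are therefore not particular to the S100 genes.

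The replicate numbers could not be shown to pair the libraries, since deviations of same-numbered libraries had a correlation of 0.0146 for HepG2S3 with HepG2 and of 0.15 for HCC4006ER with HCC4006P1, and the titles give both HepG2 libraries the same number. With the replicate block, 8 S100 genes were called in HepG2S3, 7 in HCC4006ER, 6 in HepG2S1, 4 in HCC827GR, 3 in HCC4006GR and 7 for the difference between HepG2S3 and HCC4006ER. Lone libraries and the low counts of S100A8 and S100A9 limit the precision.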
